A study of Mus musculus with 18 samples.

Results

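The 45 interferon response genes described here were the rows of the deposited table whose symbol matched a list of 45 names of genes known to respond to interferons, and all 45 were found among the table's 15288 genes. Rows were matched by symbol alone, with no threshold on a measured value, though the list was drawn up with earlier results of these data known. All 45 had a mean of at least 1 CPM (read counts scaled to the same total in every library) over the 18 libraries and entered the test, as did 11835 genes of the table. RNA was sequenced from mouse cells that the labels call pulmonary microvascular endothelial cells, while the series title speaks of smooth muscle cells. Cells received siRNA against CYP1B1 (siCYP1B1), a cytochrome P450 that metabolizes estradiol, or scrambled siRNA, both by lipid transfection. At 24 hours after transfection 1 uM 16aOHE or 1 uM E2 was added for 24 hours in 5% serum, and a vehicle arm received neither estrogen. The 6 groups of 3 libraries were thus siCYP1B1 with 16aOHE, siCYP1B1 with E2, siCYP1B1 with vehicle, scrambled siRNA with 16aOHE, scrambled siRNA with E2 and scrambled siRNA with vehicle. E2 is estradiol, the main circulating estrogen, and 16aOHE is read here as the estrone metabolite with a hydroxyl group added at the 16-alpha position. Every group was transfected, no group without siRNA is among the libraries, and no group was treated with an interferon.

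Type I interferons bind a surface receptor whose kinases phosphorylate Stat2, which acts with Irf9 in a complex that binds interferon-stimulated response elements in promoters. Type II interferon acts at gamma-activated sites. The induced genes encode nucleic acid sensors, transcription factors, antiviral effectors, GTPases that act on vacuoles holding microbes, and the machinery that cuts and presents peptides on class I molecules. Cells also keep a low level of the same genes running without an added interferon, which is called tonic signalling.

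From the steps between low values, 1 CPM stood for an estimated 14.0 reads in the shallowest library and 38.4 reads in the deepest. Cyp1b1, the targeted gene, averaged 81.5 ± 0.724 CPM with siCYP1B1 and 92.2 ± 3.58 CPM with scrambled siRNA in the vehicle arm (SD, n = 3 each), a log2 difference of -0.18 ± 0.035 (SE). Its 3-arm log2 difference was -0.20 ± 0.020 (limma adjusted p = 5.83e-08), so the targeted transcript was lower by a small amount only. The table held 10 of 15 endothelial markers looked for, 4 of them averaging under 1 CPM. Among these 4 were Pecam1 at 0.0481 ± 0.0593 CPM and Vwf at 0.0305 ± 0.0589 CPM (SD, n = 18 libraries). Of the other 6, Cd34 averaged 106.8 CPM, Flt1 70.0 CPM, Esam 18.9 CPM and Eng 7.76 CPM. Kdr averaged 4.37 CPM and Egfl7 1.14 CPM. Of the 8 smooth muscle markers found, 4 averaged under 1 CPM, among them Myh11 at 0.0764 ± 0.0877 CPM. The other 4 averaged 964.6 CPM for Cald1, 90.1 CPM for Smtn, 20.5 CPM for Acta2 and 2.66 CPM for Tagln. The smooth muscle markers summed to 1027 to 1073 CPM with siCYP1B1 and 1083 to 1121 CPM with scrambled siRNA. The 7 listed mesothelial markers summed to 2675 to 3383 CPM in libraries with siCYP1B1 and 3472 to 4443 CPM in libraries with scrambled siRNA, and 6 of the 6 tested were lower in the 3-arm siRNA comparison. Of 13 listed leukocyte markers 6 were in the table, with Ptprc at 0.0312 ± 0.0462 CPM and Itgam at 0.0290 ± 0.0430 CPM. Cd14 averaged 21.99 CPM, Cd68 12.28 CPM, Mpeg1 10.66 CPM and Csf1r 0.680 CPM. The leukocyte markers summed to 41.4 to 43.3 CPM with siCYP1B1 and 47.2 to 50.97 CPM with scrambled siRNA under 16aOHE, to 38.7 to 42.1 CPM and 47.7 to 50.5 CPM under E2, and to 40.9 to 43.1 CPM and 49.8 to 52.6 CPM in vehicle. Of the 3 leukocyte markers tested, the macrophage gene Mpeg1 was lower with siCYP1B1 (-1.14 ± 0.047, SE), whereas Cd14 (0.05 ± 0.035) and Cd68 (-0.04 ± 0.065) did not pass the test. The endothelial markers summed to 141.0 to 197.7 CPM with siCYP1B1 and 219.0 to 305.7 CPM with scrambled siRNA, with 3 of 6 tested lower, as were 4 of 4 smooth muscle and 4 of 5 fibroblast markers tested. These summed marker levels were lower with siCYP1B1, like most interferon response genes, and their part in the results was not tested. In bulk RNA, fewer cells of a type and less RNA per cell cannot be told apart. The labels do not state whether a group's 3 libraries are separate cultures, so p-values measure the spread between these libraries only.

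With siCYP1B1 the interferon response genes were mostly lower than with scrambled siRNA, in each of the 3 arms. The immunity-related GTPase Iigp1 stood lowest, at about 51.6% below its scrambled level under E2, and Stat2, Cxcl10, Irgm1, Zbp1, Gbp2, Irgm2, Ifit3 and Irf7 were lower by 0.40 to 0.61 on the log2 scale in the mean of the 3 arms. A gene is called here when limma's moderated test on log2(CPM + 1), adjusted by Benjamini-Hochberg over all genes tested in that comparison, gave a p under 0.05. Under 16aOHE 23 members were called lower and 0 higher, against 9.31% of all tested genes lower and 10.4% higher. Under E2 28 were lower and 0 higher, against 9.8% and 11.4% of all genes. In vehicle 22 were lower and 1 higher, against 9.12% and 11.5%. In the mean of the 3 arms 33 members were lower and 2 higher, while 18.2% of all genes were lower and 26.5% higher.

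The median log2 difference over the 45 members was -0.13 under 16aOHE, -0.16 under E2 and -0.13 in vehicle, beside medians over all tested genes of 0.01, 0.03 and 0.03. Of the members 19 were called lower in all 3 arms and 31 in at least 1. For 22 members every siCYP1B1 library lay below every scrambled library in each of the 3 arms, and for 0 members above, against 7.51% of all tested genes below and 7.99% above. At an unadjusted p under 0.05, 1 member was higher under 16aOHE, 0 under E2 and 2 in vehicle. The 45 members together held 9308 to 10480 CPM in the 9 libraries with siCYP1B1 and 11020 to 12160 CPM in the 9 with scrambled siRNA, so the summed level did not overlap. Leaving out any 1 library kept the number called lower between 18 and 25 under 16aOHE, 21 and 29 under E2, and 17 and 23 in vehicle.

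**Figure D1:**
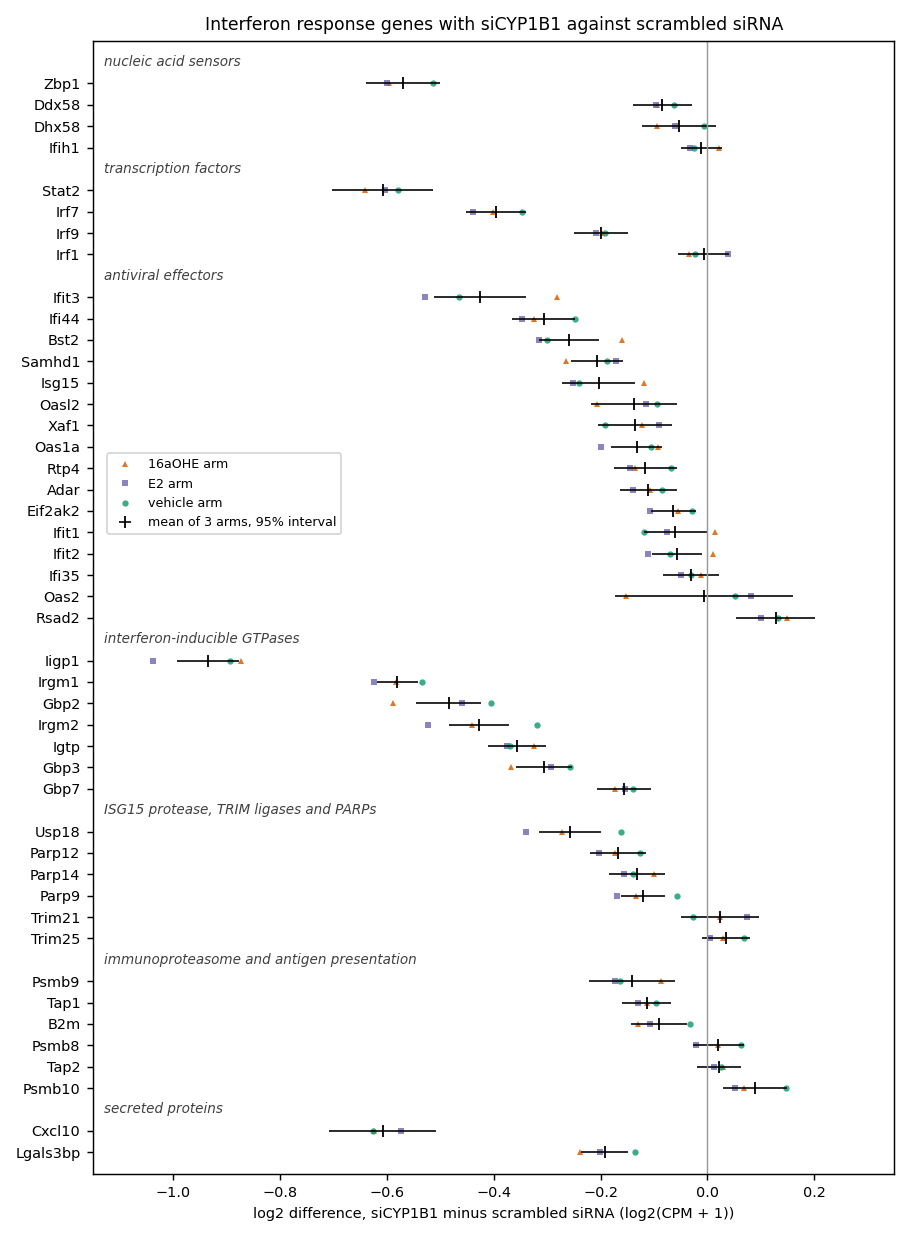
Log2 difference of each of the 45 interferon response genes with siCYP1B1 against scrambled siRNA, grouped by role. Coloured symbols give the 16aOHE, E2 and vehicle arms, and the black bar gives the mean of the 3 arms with its 95% interval; the 7 GTPases all lie left of 0, with Iigp1 lowest at -0.94.

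Promoters were read to show what DNA stands before the genes whose levels moved. RefSeq promoters (build GRCm38.p6, from 250 bases before to 50 bases after the start of transcription) were listed for 36 of the 45 members, none of them Iigp1, Zbp1, Usp18 or Tap2. A gene counted as holding a motif when any of its listed promoters did. The core of the interferon-stimulated response element, GAAANNGAA on either strand, was present in 22 of the 36 (61.1%). It was present in 8.50% of 9320 tested genes with a listed promoter and in 9.76% of all 27025 genes with a listed promoter. The gamma-activated site TTCNNNGAA, which reads the same on both strands, was present in 12 of 36 (33.3%), against 8.19% of these tested genes. Among members called lower with siCYP1B1 in the 3-arm mean 17 of 27 (63.0%) held the response element core, and among the other members 5 of 9 (55.6%) did. Among members called higher with E2 under either siRNA 7 of 11 (63.6%) held it, and among the rest 15 of 25 (60.0%). No test was run between these shares. The 6 promoters that follow belong to genes whose values are given next. Stat2, Irgm1, Irgm2, Ifit3 and Irf7 are shown for their lower level with siCYP1B1, Irf7 being one with no match, and Rsad2 for its higher level with E2 than with vehicle, each 5′ to 3′ on the gene's strand. Capitals mark the response element core on either strand, and in Irgm2 also the gamma-activated site, which begins 75 bases before the start.
Stat2: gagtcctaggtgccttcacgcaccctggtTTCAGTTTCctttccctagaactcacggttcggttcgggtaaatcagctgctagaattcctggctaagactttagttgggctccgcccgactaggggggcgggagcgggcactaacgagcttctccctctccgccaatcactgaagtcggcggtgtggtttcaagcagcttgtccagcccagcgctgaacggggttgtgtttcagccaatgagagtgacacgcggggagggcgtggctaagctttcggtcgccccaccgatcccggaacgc
Irgm1: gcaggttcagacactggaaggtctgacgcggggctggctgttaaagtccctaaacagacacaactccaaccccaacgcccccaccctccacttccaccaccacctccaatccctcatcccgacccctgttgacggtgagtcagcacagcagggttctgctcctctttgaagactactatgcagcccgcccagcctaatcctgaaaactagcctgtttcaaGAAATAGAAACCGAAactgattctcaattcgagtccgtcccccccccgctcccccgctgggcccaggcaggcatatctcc
Irgm2: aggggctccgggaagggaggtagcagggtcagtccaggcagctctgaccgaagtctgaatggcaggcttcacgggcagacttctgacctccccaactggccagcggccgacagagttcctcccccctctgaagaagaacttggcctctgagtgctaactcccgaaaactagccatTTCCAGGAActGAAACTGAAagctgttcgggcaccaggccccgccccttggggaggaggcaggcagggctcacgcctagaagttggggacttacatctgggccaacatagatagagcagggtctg
Ifit3: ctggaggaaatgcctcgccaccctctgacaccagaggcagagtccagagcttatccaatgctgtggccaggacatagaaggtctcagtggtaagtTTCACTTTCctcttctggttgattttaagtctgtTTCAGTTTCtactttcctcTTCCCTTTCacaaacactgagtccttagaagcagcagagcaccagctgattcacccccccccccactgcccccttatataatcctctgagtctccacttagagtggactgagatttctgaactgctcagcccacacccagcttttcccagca
Rsad2: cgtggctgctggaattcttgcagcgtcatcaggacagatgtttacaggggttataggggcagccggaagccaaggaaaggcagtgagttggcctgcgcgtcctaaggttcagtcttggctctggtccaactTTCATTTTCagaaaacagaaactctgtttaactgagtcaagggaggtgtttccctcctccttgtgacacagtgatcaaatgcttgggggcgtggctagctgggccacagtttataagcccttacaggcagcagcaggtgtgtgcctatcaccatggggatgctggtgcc
Irf7: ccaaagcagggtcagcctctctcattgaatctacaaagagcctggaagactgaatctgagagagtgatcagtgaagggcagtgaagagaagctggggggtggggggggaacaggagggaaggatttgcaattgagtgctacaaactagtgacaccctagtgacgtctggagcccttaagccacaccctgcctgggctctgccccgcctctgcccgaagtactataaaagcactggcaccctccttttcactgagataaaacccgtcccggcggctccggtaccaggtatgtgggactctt
The windows are chr10:128270248-128270547, plus strand, for Stat2, chr11:48871371-48871670, minus strand, for Irgm1, and chr11:58214727-58215026, plus strand, for Irgm2. Those of the other genes are chr19:34583279-34583578, plus strand, for Ifit3, chr12:26456403-26456702, minus strand, for Rsad2, and chr7:141266375-141266674, minus strand, for Irf7. Ifit3 held 3 cores, which begin 155, 121 and 102 bases before the start, and Irgm1 held a pair that overlap, 30 and 24 bases before it. In Stat2 the core began 221 bases before the start, in Rsad2 119 bases and in Irgm2 64 bases. Cxcl10 and Gbp2, not printed, held 1 core each, 213 and 58 bases before the start. A match in letters is a description of the window and says nothing of what binds there.

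Of the 4 nucleic acid sensors 2 were called lower with siCYP1B1 in the 3-arm mean. Zbp1, which senses nucleic acids in the Z form, was the 1 of 4 sensors called lower in all 3 arms. Its level was 55.0, 50.3 and 57.4 CPM with siCYP1B1 against 81.7, 83.4 and 81.8 CPM with scrambled siRNA under 16aOHE. Under E2 the libraries held 52.9, 53.0 and 56.9 CPM with siCYP1B1 against 90.4, 75.4 and 83.2 CPM with scrambled siRNA, and in vehicle 57.8, 59.6 and 63.0 CPM with siCYP1B1 against 89.1, 83.0 and 86.7 CPM with scrambled siRNA. Every siCYP1B1 library was lower than every scrambled library in its arm, and the 3-arm log2 difference was -0.57 ± 0.034 (SE, adjusted p = 2.12e-11). Ddx58, which encodes the cytosolic RNA helicase RIG-I, had 209 to 239 CPM with siCYP1B1 and 228 to 253 CPM with scrambled siRNA and differed by -0.08 ± 0.027 in the 3-arm mean (adjusted p = 0.0139) and was called in no single arm. Ifih1, which encodes the long double-stranded RNA sensor MDA5, had 181 to 196 CPM with siCYP1B1 and 186 to 203 CPM with scrambled siRNA. Its 3-arm log2 difference had a 95% interval of -0.05 to 0.03, and the groups overlapped. Dhx58, the related helicase LGP2, had 53.5 to 66.8 CPM with siCYP1B1 and 61.7 to 74.5 CPM with scrambled siRNA, with an interval of -0.12 to 0.02, and neither helicase was called.

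Of the 4 transcription factors 3 were called lower in every arm. Stat2, the interferon-specific signal transducer, had 129.8, 101 and 119.5 CPM with siCYP1B1 and 194, 173 and 178 CPM with scrambled siRNA under 16aOHE. Under E2 it had 153, 139 and 134 CPM with siCYP1B1 and 241, 216 and 194 CPM with scrambled siRNA, and in vehicle 126, 120.1 and 118 CPM with siCYP1B1 and 194, 174 and 177 CPM with scrambled siRNA. The groups did not overlap in any arm, and its 3-arm log2 difference was -0.61 ± 0.046 (SE, adjusted p = 9.49e-10). Irf7, which amplifies the transcription of type I interferon genes, had 358, 356 and 390.3 CPM with siCYP1B1 against 462, 462 and 479 CPM with scrambled siRNA in vehicle. No arm overlapped, and its log2 difference was -0.40 ± 0.047 under 16aOHE, -0.44 ± 0.047 under E2 and -0.35 ± 0.047 in vehicle. Irf9, the DNA-binding partner of Stat2, had 97.8 to 108 CPM with siCYP1B1 and 114 to 123 CPM with scrambled siRNA and differed less, by -0.20 ± 0.024 in the 3-arm mean (adjusted p = 1.14e-06), with no overlap between the groups in any arm. Irf1, a factor that responds mainly to type II interferon, had 132 to 165 CPM with siCYP1B1 and 139 to 156 CPM with scrambled siRNA, ranges that overlapped, with a 95% interval of the 3-arm log2 difference of -0.05 to 0.04.

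**Figure D2:**
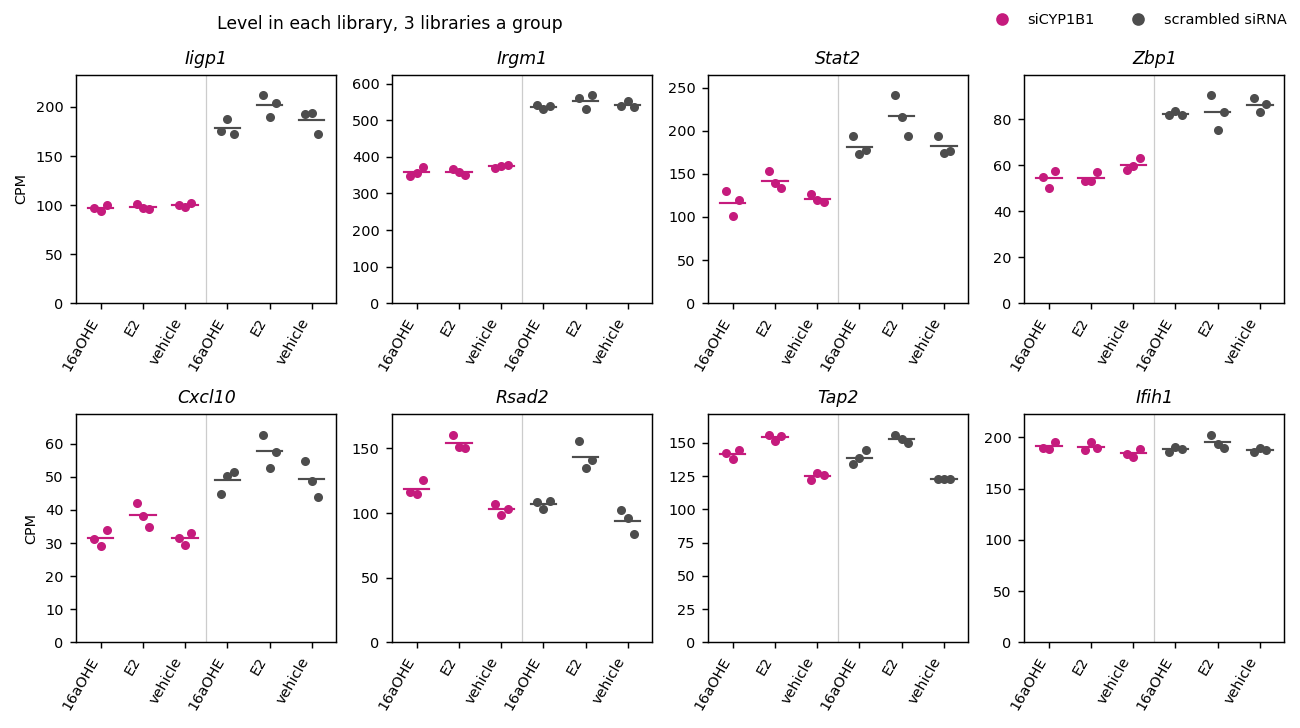
CPM of 8 members in each of the 18 libraries, with siCYP1B1 on the left and scrambled siRNA on the right of each panel and a line at the mean of 3 libraries. Iigp1, Irgm1, Stat2, Zbp1 and Cxcl10 sit lower with siCYP1B1 in every arm, Rsad2 and Tap2 sit higher with E2 than with vehicle, and Ifih1 stays between 181 and 203 CPM.

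All 7 interferon-inducible GTPases were called lower with siCYP1B1 in all 3 arms. The family comprises the immunity-related GTPases Iigp1, Irgm1, Irgm2 and Igtp and the guanylate-binding proteins Gbp2, Gbp3 and Gbp7, which gather on vacuoles around intracellular microbes. Iigp1 had 96.5, 93.8 and 100.4 CPM with siCYP1B1 and 176, 187 and 172 CPM with scrambled siRNA under 16aOHE. Under E2 it had 101, 96.9 and 95.9 CPM with siCYP1B1 and 212, 190.3 and 204 CPM with scrambled siRNA, and in vehicle 99.6, 97.6 and 102 CPM with siCYP1B1 and 193, 194 and 172 CPM with scrambled siRNA. The highest siCYP1B1 library was far under the lowest scrambled one in each arm, and the log2 difference was -0.87 ± 0.048 under 16aOHE, -1.04 ± 0.048 under E2 and -0.89 ± 0.048 in vehicle (SE, adjusted p = 2.13e-10, 1.20e-11 and 1.02e-10). Irgm1, a regulator of the other GTPases, had 348, 355 and 371 CPM with siCYP1B1 and 543, 531 and 538 CPM with scrambled siRNA under 16aOHE, 368, 358 and 351 CPM with siCYP1B1 and 561, 532 and 568 CPM with scrambled siRNA under E2, and 369.8, 374 and 379 CPM with siCYP1B1 and 539, 552 and 536 CPM with scrambled siRNA in vehicle. No libraries overlapped, and its 3-arm log2 difference of -0.58 ± 0.019 had the smallest error among the GTPases (adjusted p = 3.23e-15). Gbp2 had 93.3, 87.7 and 103 CPM with siCYP1B1 and 135, 146 and 147 CPM with scrambled siRNA under 16aOHE, 114, 119 and 115 CPM with siCYP1B1 and 158, 160.3 and 162 CPM with scrambled siRNA under E2, and 110.2, 109 and 107 CPM with siCYP1B1 and 155, 140.4 and 138 CPM with scrambled siRNA in vehicle. Its groups were apart in every arm as well, with a 3-arm log2 difference of -0.48 ± 0.029. Irgm2 had 97.7 to 112 CPM in the 9 libraries with siCYP1B1 and 133 to 155 CPM in the 9 with scrambled siRNA (-0.43 ± 0.027). Igtp, which acts with Irgm1 and Irgm2, had 99.4 to 119 CPM with siCYP1B1 and 129 to 145 CPM with scrambled siRNA (-0.36 ± 0.026). Gbp3 had 115 to 142 CPM with siCYP1B1 and 145 to 169.5 CPM with scrambled siRNA (-0.31 ± 0.025), and Gbp7 80.5 to 104 CPM with siCYP1B1 and 92.0 to 112 CPM with scrambled siRNA (-0.16 ± 0.024). In each of these 4, too, every siCYP1B1 library was below every scrambled library in its arm. Gbp7 was the 1 GTPase of the 7 whose call was lost in an alternative, in vehicle and under E2. Iigp1 has the related gene Gm4951 in the table, and the sources used here do not state how reads shared by such copies were counted, so its value is uncertain to that extent. Gm4951 was also lower (-0.37 ± 0.051).

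Among the 16 antiviral effectors 12 were called lower in the 3-arm mean, 1 was higher and 3 were not called. Ifit3, of the family that binds viral RNA, had 190.5, 176 and 189 CPM with siCYP1B1 and 214, 228 and 234 CPM with scrambled siRNA under 16aOHE, 196, 200.2 and 200.2 CPM with siCYP1B1 and 322, 268 and 276 CPM with scrambled siRNA under E2, and 176, 198 and 175 CPM with siCYP1B1 and 291, 241 and 230.1 CPM with scrambled siRNA in vehicle. The groups did not overlap, and the log2 difference was -0.28 ± 0.072 under 16aOHE, -0.53 ± 0.072 under E2 and -0.47 ± 0.072 in vehicle (SE). Its copy Ifit3b was lower as well (-0.41 ± 0.040), and reads may be split between the pair. Its neighbours Ifit1 and Ifit2 on chromosome 19 had smaller siRNA differences, and the difference between these genes was not tested. Ifit1 had 186 to 235 CPM with siCYP1B1 and 191 to 248 CPM with scrambled siRNA, differed by -0.06 ± 0.028 in the 3-arm mean and was not called (adjusted p = 0.0880). Ifit2 had 87.4 to 106 CPM with siCYP1B1 and 88.4 to 116 CPM with scrambled siRNA and differed by -0.06 ± 0.023 (adjusted p = 0.0468), a call lost in some alternatives, and of the single arms it was called under E2 (-0.11 ± 0.039), also lost in some.

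Bst2, which encodes the virion tether tetherin, had 566, 622 and 614 CPM with siCYP1B1 and 779, 715 and 725 CPM with scrambled siRNA in vehicle, a log2 difference of -0.30 ± 0.047. Its groups were apart in every arm. Ifi44, an interferon-induced antiviral gene, had 171 to 191 CPM over the libraries with siCYP1B1 and 201 to 239 CPM over those with scrambled siRNA, and differed by -0.31 ± 0.028 in the 3-arm mean. Samhd1, which breaks down the nucleotides needed for reverse transcription, had 164 to 200.2 CPM with siCYP1B1 and 184 to 227 CPM with scrambled siRNA and differed by -0.21 ± 0.023. Isg15, a ubiquitin-like protein joined to other proteins, had 259 to 309.9 CPM with siCYP1B1 and 288 to 392 CPM with scrambled siRNA and differed by -0.20 ± 0.033. Bst2, Ifi44 and Samhd1 were called in every arm and Isg15 under E2 and in vehicle. Smaller 3-arm differences were called for the other 6. Oasl2, a relative of the oligoadenylate synthetases, had 301 to 390.5 CPM with siCYP1B1 and 358 to 436 CPM with scrambled siRNA (-0.14 ± 0.039). Xaf1, which favours cell death, had 52.0 to 62.7 CPM with siCYP1B1 and 56.0 to 66.9 CPM with scrambled siRNA (-0.14 ± 0.033). Rtp4, a zinc finger protein that restricts some viruses, had 106 to 132 CPM with siCYP1B1 and 119 to 137 CPM with scrambled siRNA (-0.12 ± 0.029). All 3 of these overlapped when the libraries of each siRNA are pooled over arms. Adar, an RNA-editing enzyme, had 227 to 258 CPM with siCYP1B1 and 239 to 272 CPM with scrambled siRNA (-0.11 ± 0.026), and Eif2ak2, which encodes the translation-stopping kinase PKR, 194 to 210.4 CPM with siCYP1B1 and 206 to 226 CPM with scrambled siRNA (-0.06 ± 0.020). The oligoadenylate synthetases, which make a messenger that switches on RNase L, differed in their calls. Oas1a had 159 to 187 CPM with siCYP1B1 and 178 to 191 CPM with scrambled siRNA and was lower in the 3-arm mean (-0.13 ± 0.023), whereas Oas2 had 154 to 245 CPM with siCYP1B1 and 157 to 248 CPM with scrambled siRNA and a 95% interval of -0.17 to 0.16. Oas2 was the member with the widest scatter, with a coefficient of variation of up to 24.7% within a group. Oas1a has the near copy Oas1g in the table, which was not called (-0.06 ± 0.040). Ifi35, a leucine zipper protein, had 108 to 122 CPM with siCYP1B1 and 112 to 125 CPM with scrambled siRNA and was not called either, with a 95% interval of -0.08 to 0.02.

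Rsad2 was higher with siCYP1B1. It encodes viperin, an enzyme that makes a chain-terminating nucleotide. It had 116, 115 and 125 CPM with siCYP1B1 and 108, 103 and 109 CPM with scrambled siRNA under 16aOHE, 161, 151 and 150.4 CPM with siCYP1B1 and 155, 135 and 141 CPM with scrambled siRNA under E2, and 107, 98.2 and 103 CPM with siCYP1B1 and 102, 96.5 and 83.4 CPM with scrambled siRNA in vehicle. The siCYP1B1 libraries were above the scrambled ones under 16aOHE and overlapped them in the other arms, and the 3-arm log2 difference was 0.13 ± 0.036 (SE, adjusted p = 0.00618), with no call in a single arm. Rsad2 and the immunoproteasome subunit Psmb10 were the 2 members called higher.

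Of the ISG15 protease, the TRIM ligases and the PARPs, Usp18 and the 3 PARPs were called lower in the 3-arm mean and the TRIM genes were not called. Usp18, which removes Isg15 from proteins and also restrains the type I receptor, had 108, 105 and 119 CPM with siCYP1B1 and 130, 139 and 132 CPM with scrambled siRNA under 16aOHE. Under E2 it had 107, 109 and 107 CPM with siCYP1B1 and 144, 126 and 139 CPM with scrambled siRNA, and in vehicle 123, 125 and 126 CPM with siCYP1B1 and 136, 145 and 138 CPM with scrambled siRNA. No arm overlapped, and the log2 difference was -0.27 ± 0.048, -0.34 ± 0.048 and -0.16 ± 0.048 in these 3 arms in turn. The ADP-ribosyltransferase genes Parp12 (-0.17 ± 0.025), Parp14 (-0.13 ± 0.025) and Parp9 (-0.12 ± 0.020) differed by less, at 157 to 191, 155 to 179 and 125 to 150.4 CPM with siCYP1B1 and 179.9 to 210.4, 162 to 202 and 141 to 153 CPM with scrambled siRNA, each with no overlap in any arm, though Parp14 was not called under 16aOHE nor Parp9 in vehicle. Parp9 overlaps Dtx3l, a gene on the opposite strand at 111 CPM that was also lower (-0.22 ± 0.025). The sources used here do not state whether counting used strand, so reads of this pair cannot be told apart. Trim25, a ligase that acts on RIG-I, had 206 to 216 CPM with siCYP1B1 and 189 to 215 CPM with scrambled siRNA, and Trim21, a receptor for antibodies inside cells, 32.9 to 40.7 CPM with siCYP1B1 and 31.6 to 39.5 CPM with scrambled siRNA. Their 95% intervals were -0.01 to 0.08 for Trim25 and -0.05 to 0.10 for Trim21.

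The genes of peptide cutting and presentation differed little and in both directions. Psmb8, Psmb9 and Psmb10 encode the catalytic subunits that replace constitutive ones in the immunoproteasome, Tap1 and Tap2 the transporter that carries peptides into the endoplasmic reticulum, and B2m the light chain of class I molecules. Levels with siCYP1B1 and with scrambled siRNA ran over 60.8 to 77.7 and 65.3 to 92.0 CPM for Psmb9, 314 to 356 and 316 to 369.7 CPM for Psmb8, 122 to 142 and 112 to 135 CPM for Psmb10, and 305 to 353 and 335 to 385 CPM for Tap1. In the 3-arm mean Psmb9 (-0.14 ± 0.038), Tap1 (-0.11 ± 0.022) and B2m (-0.09 ± 0.025) were called lower, Psmb10 (0.09 ± 0.029) was called higher, and Psmb8 and Tap2 were not called (95% intervals -0.03 to 0.07 and -0.02 to 0.06). Psmb9 was called in no single arm, B2m lower under 16aOHE alone and Psmb10 higher in vehicle alone. Tap1 was called lower under 16aOHE and under E2. Psmb9, Tap1, Psmb8 and Tap2 lie next to each other on chromosome 17 (Psmb9 at chr17:34182030-34187330 and Tap2 at chr17:34204479-34216321, RefSeq GRCm38.p6), and of these 4 neighbours 2 were called lower and 2 were not called. B2m had 2000 to 2479 CPM with siCYP1B1 and 2304 to 2600 CPM with scrambled siRNA, ranges that overlap. Its call and that of Psmb10 were lost in some alternatives, and B2m changed sign under quantile normalization. The constitutive subunits that the 3 inducible ones replace were called higher with siCYP1B1 in the 3-arm mean, Psmb5 by 0.23 ± 0.037, Psmb6 by 0.07 ± 0.026 and Psmb7 by 0.12 ± 0.031, but Psmb6 and Psmb7 were called in no single arm. Psmb5 differed by -0.09 ± 0.064 under 16aOHE, where it was not called, and was called higher under E2 (0.33 ± 0.064) and in vehicle (0.46 ± 0.064). Of 15 other antigen presentation genes tested 8 were lower and 2 higher in the 3-arm mean, against 18.2% and 26.5% of all tested genes. The loading factor Tapbp (-0.33 ± 0.020) and the class I heavy chain gene H2-K1 (-0.25 ± 0.033) were among those lower.

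Both secreted proteins were lower in every arm. Cxcl10, a chemokine that draws activated T cells, had 31.1, 29.2 and 33.9 CPM with siCYP1B1 and 44.9, 50.3 and 51.5 CPM with scrambled siRNA under 16aOHE, 42.1, 38.3 and 34.9 CPM with siCYP1B1 and 62.7, 52.8 and 57.4 CPM with scrambled siRNA under E2, and 31.7, 29.5 and 33.2 CPM with siCYP1B1 and 54.8, 48.9 and 44.0 CPM with scrambled siRNA in vehicle. No arm overlapped, and the 3-arm log2 difference was -0.61 ± 0.048 (SE, adjusted p = 2.26e-09). Cxcl10 overlaps Art3 on the opposite strand, which averaged 1.28 CPM. Lgals3bp, a secreted glycoprotein, had 348 to 434 CPM with siCYP1B1 and 398 to 464 CPM with scrambled siRNA and differed by -0.24 ± 0.036 under 16aOHE, -0.20 ± 0.036 under E2 and -0.14 ± 0.036 in vehicle.

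The remainder of the pathway was examined through lists chosen with earlier results of these data known. Of 12 listed interferon genes 1 was in the table, Ifnb1 at 0.126 ± 0.0891 CPM over 18 libraries, too low to be tested. Among the receptor and kinase genes the type II receptor chain Ifngr1 (-0.09 ± 0.033) and Il10rb (-0.13 ± 0.035) were called lower with siCYP1B1 in the 3-arm mean, and the kinases Jak1 (0.08 ± 0.017) and Tyk2 (0.12 ± 0.038) were called higher. The type I receptor chains Ifnar1 and Ifnar2 were not called, with 95% intervals of -0.08 to 0.03 and -0.02 to 0.12. Of 13 sensing adaptors, kinases and related factors 2 were lower, among them Irf5 (-0.42 ± 0.064), and 4 higher, among them the kinase Ikbke (0.17 ± 0.041). Of 9 negative regulators 1 was lower, Tnfaip3 (-0.23 ± 0.037), and 2 were higher. Over all tested genes 18.2% were lower and 26.5% higher, so these small counts are no result about either list. Of 57 other interferon-stimulated genes tested 30 were lower and 7 higher, with a median log2 difference of -0.11, beside 18.2% lower, 26.5% higher and a median of 0.03 over all genes. The GTPase genes Tgtp2 (-0.73 ± 0.032), Tgtp1 (-0.72 ± 0.035) and Gbp6 (-0.69 ± 0.034) stood lowest of the named ones, and Ifi27, a mitochondrial and nuclear membrane protein gene, was higher (0.56 ± 0.027). Tgtp1 and Tgtp2 are near-identical copies whose reads may be split.

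With E2, Rsad2 was higher than in vehicle by about 49.6% under siCYP1B1 and 52.7% under scrambled siRNA, and 8 other members were called higher under both siRNAs by 0.14 to 0.31 on the log2 scale, among them the transporter subunit Tap2 and the signal transducer Stat2. Samhd1, Parp12 and Lgals3bp were lower under both. With siCYP1B1 11 members were called higher and 7 lower with E2 than with vehicle, against 16.7% and 10.8% of all tested genes. With scrambled siRNA 11 were higher and 3 lower, against 18.6% and 11.4%. The members called were 24.4% higher and 15.6% lower with siCYP1B1 and 24.4% higher and 6.67% lower with scrambled siRNA, shares not far from those of all genes, so the counts are no result about the members as a group. The median log2 difference over the members was -0.01 with siCYP1B1 and 0.06 with scrambled siRNA, beside 0.04 and 0.03 over all genes. The 9 members called higher under both siRNAs were 9 of the 11 called under each. The summed mesothelial markers were 2675 to 2818 CPM with E2 and 3285 to 3383 CPM in vehicle under siCYP1B1, and 3472 to 3720 CPM with E2 and 4399 to 4443 CPM in vehicle under scrambled siRNA, with 5 of 6 tested lower under each siRNA. The summed fibroblast markers were 3208 to 3316 CPM with E2 and 4850 to 5124 CPM in vehicle under siCYP1B1, and 3971 to 4438 CPM with E2 and 6046 to 6368 CPM in vehicle under scrambled siRNA, with 3 of 5 tested lower under each and 1 higher under scrambled siRNA. The endothelial markers summed to 141 to 147.4 CPM with E2 and 195.3 to 197.7 CPM in vehicle under siCYP1B1, and to 219 to 227.3 CPM with E2 and 267.3 to 305.7 CPM in vehicle under scrambled siRNA, with 4 of 6 tested lower under each. The summed smooth muscle and leukocyte markers overlapped between E2 and vehicle under each siRNA. The smooth muscle sums were 1062 to 1073 CPM with E2 and 1027 to 1063 CPM in vehicle under siCYP1B1. Under scrambled siRNA they were 1095 to 1121 CPM with E2 and 1097 to 1116 CPM in vehicle. The part of any of these markers in the E2 differences was not tested. Under another scaling of the libraries, by median-of-ratios size factors, the calls were 7 higher and 12 lower with siCYP1B1 and 7 higher and 6 lower with scrambled siRNA.

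Rsad2 had the largest E2 difference of the 45 members under both siRNAs. With siCYP1B1 it had 161, 151 and 150.4 CPM under E2 against 107, 98.2 and 103 CPM in vehicle, and with scrambled siRNA 155, 135 and 141 CPM under E2 against 102, 96.5 and 83.4 CPM in vehicle. All 3 E2 libraries were above all 3 vehicle libraries with either siRNA, and the mean was higher by 49.6% with siCYP1B1 and 52.7% with scrambled siRNA (log2 0.58 ± 0.062 with siCYP1B1 and 0.61 ± 0.062 with scrambled siRNA, SE; adjusted p = 6.35e-07 and 3.39e-07). Tap2, the second subunit of the peptide transporter, had 156, 151 and 155 CPM under E2 and 122, 127 and 126 CPM in vehicle with siCYP1B1, and 156, 153 and 150.1 CPM under E2 and 123, 123 and 123 CPM in vehicle with scrambled siRNA. The groups were apart with both siRNAs, at log2 differences of 0.30 ± 0.034 with siCYP1B1 and 0.31 ± 0.034 with scrambled siRNA. Ifit2 had 106, 104 and 106 CPM under E2 and 87.5, 87.4 and 91.6 CPM in vehicle with siCYP1B1, and 115, 116 and 111 CPM under E2 and 98.5, 88.4 and 93.3 CPM in vehicle with scrambled siRNA, again with no overlap (0.24 ± 0.039 with siCYP1B1 and 0.29 ± 0.039 with scrambled siRNA). Gbp7 was higher by 0.21 ± 0.042 with siCYP1B1 and 0.22 ± 0.042 with scrambled siRNA, and Ifit1 by 0.23 ± 0.049 with siCYP1B1 and 0.19 ± 0.049 with scrambled siRNA.

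Stat2 was higher with E2 by 0.22 ± 0.079 with siCYP1B1 and 0.25 ± 0.079 with scrambled siRNA, and Cxcl10 by 0.28 ± 0.083 with siCYP1B1 and 0.23 ± 0.083 with scrambled siRNA. Psmb9 (0.20 with siCYP1B1 and 0.20 with scrambled siRNA) and Parp14 (0.14 with siCYP1B1 and 0.15 with scrambled siRNA) completed the 9. With E2 the Stat2 libraries lay apart from vehicle under siCYP1B1 and overlapped under scrambled siRNA, as those of Cxcl10 and Parp14 did. The calls of Stat2, Cxcl10, Psmb9 and Parp14 with either siRNA, and of Ifit1 with scrambled siRNA, were lost in at least 1 alternative. Without replicate 3 of the scrambled vehicle group the number higher with scrambled siRNA was 6, and without replicate 1 or 2 of the siCYP1B1 group with E2 the number higher with siCYP1B1 was 7. Irf1 (0.16 ± 0.039) and Trim21 (0.17 ± 0.061) were called with siCYP1B1, and Psmb8 (0.16 ± 0.039) and Gbp2 (0.15 ± 0.051) with scrambled siRNA. The call of Trim21 was lost in 12 of 24 alternatives and that of Gbp2 in 6, and those of Irf1 and Psmb8 in 0.

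Samhd1, Parp12 and Lgals3bp were lower with E2 under both siRNAs. Samhd1 had 172, 171 and 164 CPM under E2 and 200.2, 188 and 195 CPM in vehicle with siCYP1B1, and 203, 186 and 184 CPM under E2 and 227, 215 and 223 CPM in vehicle with scrambled siRNA. No libraries overlapped, and the log2 difference was -0.20 ± 0.040 with siCYP1B1 and -0.21 ± 0.040 with scrambled siRNA. Lgals3bp differed by -0.22 ± 0.036 with siCYP1B1 and -0.15 ± 0.036 with scrambled siRNA, and Parp12 by -0.21 ± 0.044 with siCYP1B1 and -0.13 ± 0.044 with scrambled siRNA. Usp18 (-0.21 ± 0.048), Parp9 (-0.18 ± 0.034), Rtp4 (-0.18 ± 0.050) and Oas1a (-0.12 ± 0.039) were called lower with siCYP1B1 and not with scrambled siRNA, but no difference in the E2 effect between the siRNAs was called. The call of Parp12 with scrambled siRNA was lost in 5 of 24 alternatives and that of Oas1a in 4. Of 57 other interferon-stimulated genes 9 were higher and 12 lower with E2 under siCYP1B1, against 16.7% and 10.8% of all tested genes. Under scrambled siRNA 13 were higher and 9 lower, against 18.6% and 11.4%. Whether these counts differ from the shares over all genes was not tested.

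With 16aOHE at the same dose and time, 1 member, Tap2, was called higher than in vehicle under both siRNAs. With siCYP1B1 1 member was higher and 5 lower with 16aOHE than with vehicle, against 2.53% and 2.86% of all genes, and with scrambled siRNA 1 was higher and 1 lower, against 1.76% and 2.08%. Tap2 had 143, 138 and 145 CPM under 16aOHE and 122, 127 and 126 CPM in vehicle with siCYP1B1, and 134, 138 and 144 CPM under 16aOHE and 123, 123 and 123 CPM in vehicle with scrambled siRNA, with no overlap and log2 differences of 0.18 ± 0.034 with siCYP1B1 and 0.17 ± 0.034 with scrambled siRNA (adjusted p = 0.00307 and 0.00417). The comparisons of each estrogen with vehicle share the vehicle libraries. Rsad2, also with every 16aOHE library above every vehicle library, had log2 differences of 0.21 ± 0.062 with siCYP1B1 and 0.19 ± 0.062 with scrambled siRNA and was not called (adjusted p = 0.0556 and 0.109).

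Members lower with 16aOHE under siCYP1B1 were Gbp2 (-0.20 ± 0.051), Gbp3 (-0.20 ± 0.044), Usp18 (-0.17 ± 0.048), Lgals3bp (-0.15 ± 0.036) and Parp9 (-0.14 ± 0.034). Under scrambled siRNA it was Bst2, at 586, 647 and 667 CPM with 16aOHE against 779, 715 and 725 CPM in vehicle (-0.23 ± 0.047). Each of these lower calls was lost when a single library was left out. For Gbp2, Parp9 and Lgals3bp this held for any of several libraries. Without replicate 2 of the siCYP1B1 group with 16aOHE, in which the members deviated by -0.07 on average from their group's log2 means, 0 of the 5 were called, and without replicate 1 of the scrambled group with 16aOHE the call of Bst2 was lost.

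**Figure D3:**
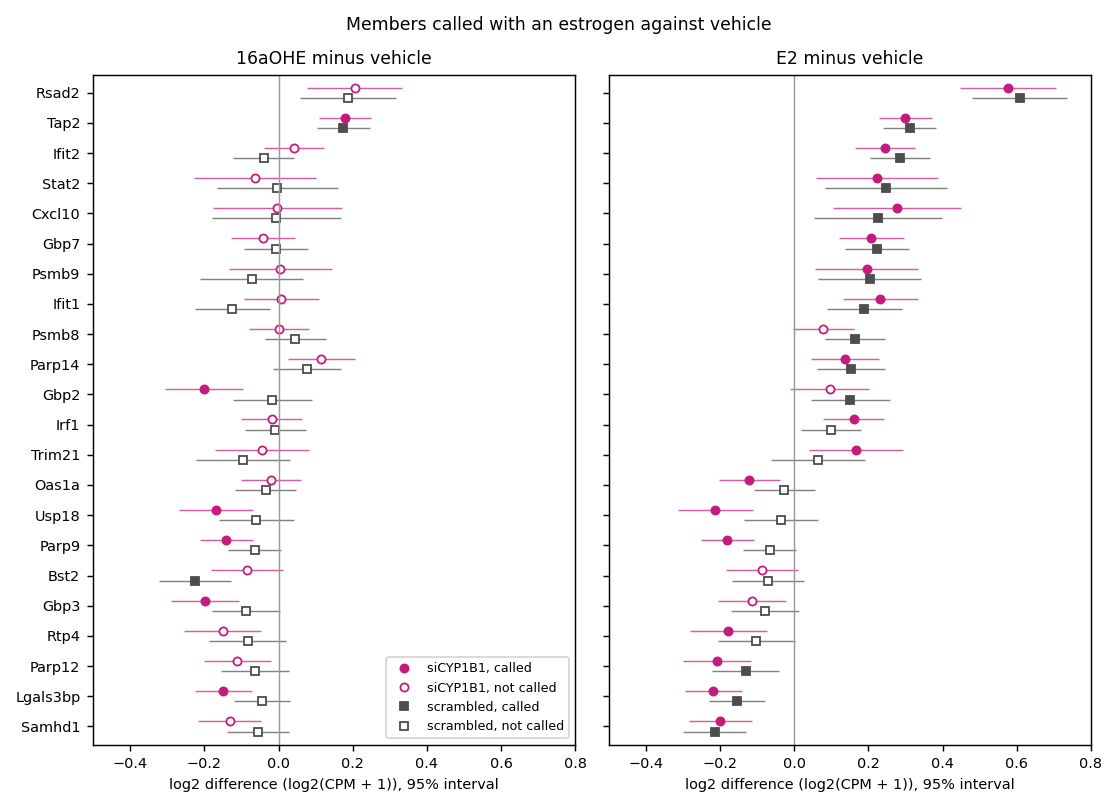
Log2 difference from vehicle with 16aOHE (left) and E2 (right) for the 22 members called in any of these comparisons, with 95% intervals; circles are siCYP1B1, squares scrambled siRNA, and filled symbols are called. Rsad2 and Tap2 lie right of 0 in all 4 comparisons, and Stat2, Cxcl10, Gbp7 and Ifit2 lie right of 0 with E2 and near 0 with 16aOHE.

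The 2 estrogens were then compared directly at 1 uM and 24 hours, 1 pair of compounds under each siRNA and so 2 comparisons, each adjusted over all tested genes. As 16aOHE is read here, it carries an added hydroxyl group on the D ring, and a ketone where estradiol has its own hydroxyl group on that ring. With siCYP1B1 0 members were higher and 11 lower with 16aOHE than with E2, against 6.59% and 11.8% of all genes, and at an unadjusted p under 0.05 2 were higher and 14 lower. With scrambled siRNA 2 were higher and 13 lower, against 6.78% and 11.6%. The members' median log2 difference was -0.02 with siCYP1B1 and -0.06 with scrambled siRNA, beside -0.04 and -0.03 over all genes. With median-of-ratios size factors the calls were 4 higher and 8 lower with siCYP1B1 and 2 higher and 10 lower with scrambled siRNA. Under that scaling the members' medians were 0.02 and -0.03, beside 0.003 and 0.002 over all genes. The summed mesothelial markers, at 3071 to 3198 CPM with 16aOHE under siCYP1B1 and 3974 to 4258 CPM under scrambled siRNA, were above their E2 levels, with 5 of 6 tested higher under each siRNA. The same held for 3 of 5 fibroblast and 2 of 6 endothelial markers tested. The smooth muscle markers summed to 1028 to 1060 CPM with 16aOHE and 1062 to 1073 CPM with E2 under siCYP1B1. Under scrambled siRNA their sums were 1083 to 1111 CPM with 16aOHE and 1095 to 1121 CPM with E2. The leukocyte sums overlapped under each siRNA, and the part of these markers was not tested. In 7 members 16aOHE was called lower with both siRNAs, namely Rsad2, Stat2, Ifit1, Ifit2, Gbp2, Gbp7 and Tap2.

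Rsad2 had 116, 115 and 125 CPM under 16aOHE and 161, 151 and 150.4 CPM under E2 with siCYP1B1, and 108, 103 and 109 CPM under 16aOHE and 155, 135 and 141 CPM under E2 with scrambled siRNA. The libraries did not overlap, and the log2 difference was -0.37 ± 0.062 with siCYP1B1 and -0.42 ± 0.062 with scrambled siRNA (SE, adjusted p = 0.000250 and 7.95e-05). Ifit2 differed by -0.20 ± 0.039 with siCYP1B1 and -0.33 ± 0.039 with scrambled siRNA, and Ifit1 by -0.22 ± 0.049 with siCYP1B1 and -0.31 ± 0.049 with scrambled siRNA. Gbp7 differed by -0.25 ± 0.042 with siCYP1B1 and -0.23 ± 0.042 with scrambled siRNA, and Gbp2 by -0.30 ± 0.051 with siCYP1B1 and -0.17 ± 0.051 with scrambled siRNA. Stat2 (-0.29 ± 0.079 with siCYP1B1 and -0.25 ± 0.079 with scrambled siRNA) and Tap2 (-0.12 ± 0.034 with siCYP1B1 and -0.14 ± 0.034 with scrambled siRNA) were also lower with 16aOHE. Called under scrambled siRNA alone were Ifit3 (-0.35), Psmb9 (-0.28), Isg15 (-0.24), Iigp1 (-0.18), Bst2 (-0.15) and Psmb8 (-0.12), and with siCYP1B1 alone Cxcl10 (-0.28), Trim21 (-0.21), Irf1 (-0.18) and B2m (-0.14). Whether these differences themselves differ between the siRNAs was not tested. The calls of Stat2 under both siRNAs, of Cxcl10, Trim21, B2m and Tap2 with siCYP1B1, and of Gbp2, Iigp1, Bst2, Psmb8, Samhd1 and Lgals3bp with scrambled siRNA were lost in at least 1 alternative. Samhd1 (0.16 ± 0.040) and Lgals3bp (0.11 ± 0.036) were higher with 16aOHE than with E2 under scrambled siRNA.

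No difference between the compounds was called for the other members, and the intervals bound its size. The narrowest were those of Ifih1, -0.06 to 0.07 with siCYP1B1 and -0.12 to 0.01 with scrambled siRNA, and of Irgm1, -0.07 to 0.06 with siCYP1B1 and -0.11 to 0.02 with scrambled siRNA. Zbp1 had intervals of -0.12 to 0.12 with siCYP1B1 and -0.13 to 0.11 with scrambled siRNA, Irf7 of -0.11 to 0.09 with siCYP1B1 and -0.15 to 0.05 with scrambled siRNA, and Oas2 the widest, -0.24 to 0.34 with siCYP1B1 and -0.01 to 0.57 with scrambled siRNA. A p that missed the threshold does not show that the estrogens act alike on these genes. Without replicate 2 of the siCYP1B1 group with 16aOHE 6 members were lower with siCYP1B1 rather than 11.

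**Figure D4:**
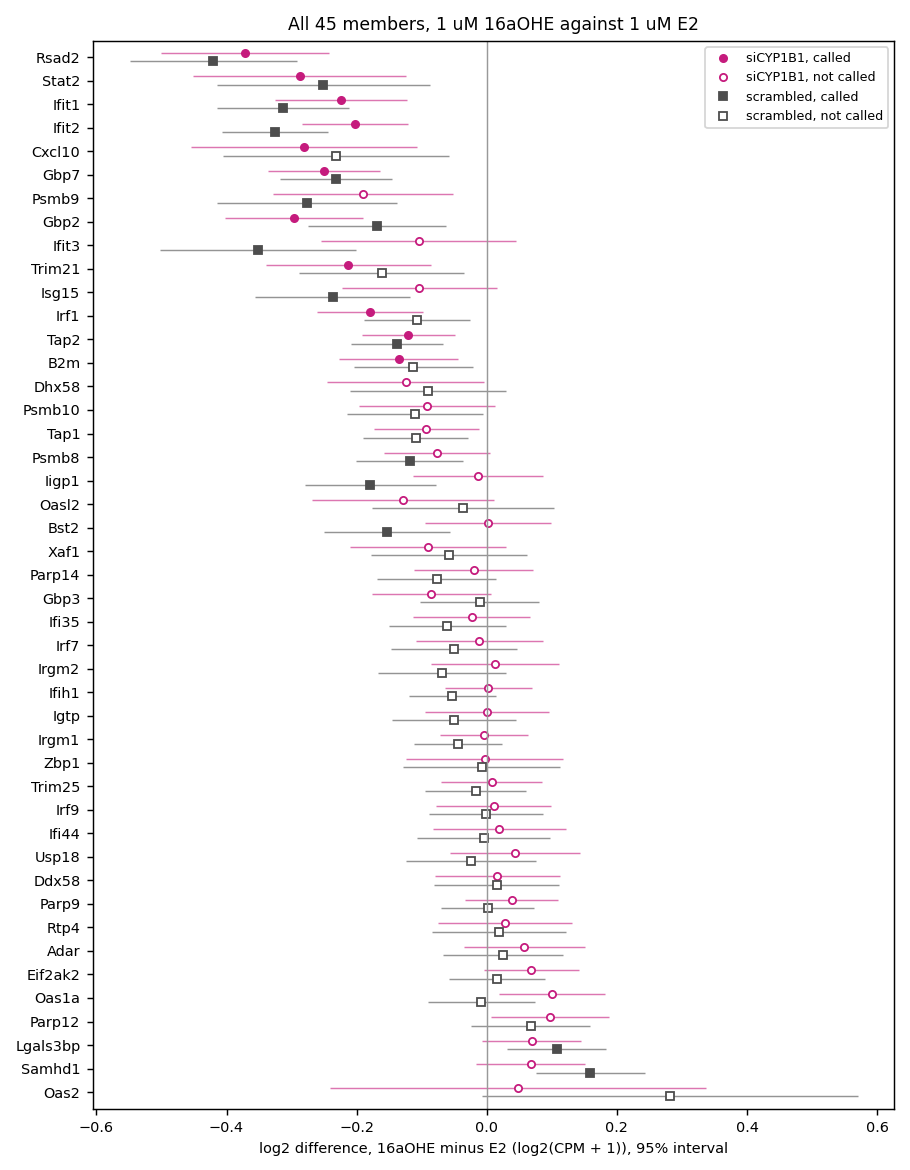
Log2 difference of all 45 members with 1 uM 16aOHE against 1 uM E2, with 95% intervals; circles are siCYP1B1, squares scrambled siRNA, and filled symbols are called. Rsad2, Stat2, Ifit1, Ifit2, Gbp7, Gbp2 and Tap2 are filled left of 0 with both siRNAs, and Samhd1 and Lgals3bp are filled right of 0 with scrambled siRNA.

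Whether the siRNA altered the response to an estrogen was tested as an interaction. For E2 by siRNA 0 members were called higher and 0 lower by limma, as were 0% of all genes, and at an unadjusted p under 0.05 0 members were higher and 4 lower. The 4 were Irgm2 (-0.20 ± 0.067), Usp18 (-0.18 ± 0.068), Iigp1 (-0.14 ± 0.068) and Parp9 (-0.11 ± 0.049), each with a limma adjusted p of 0.998. The 95% interval of the E2 interaction was -0.21 to 0.15 for Rsad2, -0.26 to 0.21 for Stat2 and -0.11 to 0.09 for Tap2. For 16aOHE by siRNA 0 members were likewise called higher and 0 lower, as were 0% of all genes, and at an unadjusted p under 0.05 Bst2 (0.14 ± 0.066) was higher and Gbp2 (-0.18 ± 0.072) lower. The members' median interaction was -0.036 for E2, beside -0.003 over all genes, with 38 of 45 members below 0. For 16aOHE it was -0.032, beside -0.008 over all genes, with 28 of 45 below 0. Whether the members differed from all genes in this was not tested.

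Mean levels over the 18 libraries ran from 35.95 CPM for Trim21 to 2339 CPM for B2m, with a median of 160.1 CPM over the members and 40.3 CPM over all tested genes, and since CPM is not scaled by length these set no order between genes. Some members lie side by side, and no difference between such neighbours was tested. On chromosome 3, between Gbp7 (chr3:142530336-142550151) and Gbp2 (chr3:142620663-142638008), Gbp7, Gbp3 and Gbp2 were all lower with siCYP1B1, and with E2 Gbp7 differed by 0.21 ± 0.042 with siCYP1B1 and 0.22 ± 0.042 with scrambled siRNA and Gbp3 by -0.11 ± 0.044 with siCYP1B1 and -0.08 ± 0.044 with scrambled siRNA. On chromosome 19, between Ifit2 (chr19:34550550-34576534) and Ifit1 (chr19:34640889-34650009), Ifit2 and Ifit1 were higher with E2 under both siRNAs, and Ifit3, between them, differed by 0.12 ± 0.072 with siCYP1B1 and 0.18 ± 0.072 with scrambled siRNA and was not called, although under scrambled siRNA its difference was close in size to that of Ifit1 (0.19 ± 0.049). Of the 45 members 10 were called in no siRNA comparison, and 5 in no comparison of any kind, namely Dhx58, Ifi35, Ifih1, Oas2 and Trim25.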

How the data were processed

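RNA-seq libraries of 18 samples in 6 groups of 3 were compared. The deposited table holds CPM values (read counts scaled to the same total in every library) for 15288 genes with 0.0001 added to each value, made by the authors with TopHat2 and Partek on build mm10, per the submitters' processing notes, which list no versions. The sources used here name no annotation. The offset was subtracted, and low values fell on steps of whole reads within 0.1 reads for 94.2% to 95.7% of values, from which depth was estimated; the values were tested as CPM, not as counts.

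Genes averaging 1 CPM or more entered limma 3.58.1 (R 4.3.3), fitted to log2(CPM + 1) with 1 coefficient for each group over all 18 libraries and eBayes with a trend. P-values were adjusted by Benjamini-Hochberg over 11835 genes within each of 12 comparisons, at a threshold of 0.05, and log2 differences are on the log2(CPM + 1) scale, which understates those of low genes. The code was tested on simulated data. No columns were identical, and replicates differed by more than sampling noise. The members and gene lists were chosen with earlier results of these data known. Members called with the largest differences are given in full and the others as ranges and counts; alternatives were another pseudocount, no filter, 2 other normalizations, no trend, only the groups compared, and each library left out.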

Additional observations from a re-analysis of the deposited data

How the results depend on the processing

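No paired analysis was possible because the labels give no replicate number shared between groups. The replicate numbers used here follow the order of the samples within each group. Of 175 called member values recomputed under 24 settings (4165 recomputations), 3870 kept their call and 294 lost it, with cause not tested, and 1 reversed: under quantile normalization the 3-arm siRNA difference of B2m was 0.0069 (adjusted p = 0.816). In all settings 16 of 23 calls with siCYP1B1 in vehicle, 21 of 28 under E2, 18 of 23 under 16aOHE and 32 of 35 in the 3-arm mean were kept. For E2 against vehicle 12 of 18 were kept with siCYP1B1 and 7 of 14 with scrambled siRNA, for 16aOHE against vehicle 1 of 6 and 1 of 2, and for 16aOHE against E2 6 of 11 and 8 of 15. With no filter on low values, and with quantile normalization, 0 members were higher with siCYP1B1 in vehicle and 1 was higher with 16aOHE than with E2 under scrambled siRNA. With median-of-ratios size factors 0 members were higher with siCYP1B1 in vehicle and 1 in the 3-arm mean; E2 against vehicle gave 7 higher and 12 lower with siCYP1B1 and 7 higher and 6 lower with scrambled siRNA; under siCYP1B1, 2 were higher with 16aOHE than with vehicle and 4 higher than with E2. That scaling set the higher share of all called genes at 40.8% for the siRNA in vehicle (main 55.7%), 40.6% under E2 (53.7%), 44.7% for E2 with siCYP1B1 (60.6%), 45.9% for E2 with scrambled siRNA (62%), 59.2% for 16aOHE against E2 with siCYP1B1 (35.9%) and 55.1% with scrambled siRNA (36.8%). Without a trend 0 members were higher with siCYP1B1 in vehicle, 7 higher with E2 under each siRNA, 2 lower with 16aOHE than with vehicle under siCYP1B1 and 1 higher with 16aOHE than with E2 under scrambled siRNA. With only the groups compared, 2 were higher and 1 lower with 16aOHE than with vehicle under siCYP1B1, and 1 was higher with 16aOHE than with E2 under scrambled siRNA. Leaving out 1 library at a time, members higher with siCYP1B1 numbered 0 to 1 in vehicle and 0 to 1 under 16aOHE. With E2, 7 to 11 were higher under siCYP1B1 and 6 to 14 under scrambled siRNA. With 16aOHE against vehicle, 1 to 2 were higher and 0 to 7 lower under siCYP1B1, and 1 to 2 higher and 0 to 1 lower under scrambled siRNA. With 16aOHE against E2, 0 to 1 were higher and 6 to 13 lower under siCYP1B1, and 1 to 2 higher under scrambled siRNA. Without replicate 1, 2 or 3 of the siCYP1B1 vehicle group 3, 2 and 2 members were lower with 16aOHE than with vehicle under siCYP1B1. Without replicate 1 of the siCYP1B1 group with E2, 7 were lower with 16aOHE than with E2, and without scrambled vehicle replicate 2 or scrambled E2 replicate 1, 7 were higher with E2 under scrambled siRNA. The filter at a mean of 1 CPM, or 14.0 reads in the shallowest library, left genes below it untested, Ifnb1 at 0.126 CPM among them.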
